A study of Oryza sativa Japonica Group with 6 samples.

Results

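Basic helix-loop-helix (bHLH) proteins form a large family of transcription factors in plants. The genes described here are those whose annotation in the deposited gene table contains "helix-loop-helix" or bHLH and that had 10 or more reads in at least 3 of the 6 libraries. Of 37863 genes in the table, 135 matched by annotation, 91 of these passed the read rule, and 44 did not, so that the 91 are not the whole family. By the same read rule, 23846 genes of the table passed. A match on text takes in a few proteins that are partners or relatives of bHLH factors rather than typical members. Examples are Os03g0640400, annotated as a KxDL-motif component of an HLH and bHLH complex, and Os11g0446000, annotated as homologous to the regulatory domain of R/B-like bHLH factors. It also takes in Os04g0536300, whose annotation as a YABBY protein names another family, and which is counted among the 91 by the text rule alone.

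The helix-loop-helix part of these proteins lets them pair, and the basic part contacts DNA, typically at E-box motifs. Atypical members that lack a working basic part can pair with a DNA-binding partner and block it. In plants, bHLH factors act below phytochromes and brassinosteroids in light and growth responses, drive the successive steps of stomatal development, and control iron uptake, jasmonate responses, anthocyanin pigment and drought responses.

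The study compared leaves of wild-type (WT) rice seedlings with leaves of OsWRKY65-2, a transgenic line labelled as overexpressing the transcription factor OsWRKY65, with 3 polyA RNA libraries of each genotype. All were Oryza sativa, Japonica group, grown on MS medium and harvested 14 days after planting. No label gives the promoter of the transgene or a further independent line, and none states whether replicates came from different plants. The p-values therefore refer to the spread between these libraries alone, which may be technical. The 3 line columns carry the line's name and replicate number. The remaining columns were read as WT by elimination, with the replicate number in the column name, since their prefix matches no label. All directions below rest on that reading. Values are given below in the order of replicates 1, 2 and 3.

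Libraries held between 20585288 and 29720852 reads assigned to genes. Counts were scaled with TMM factors to libraries of 1000000 (CPM), and a count of 0 allows up to 0.0917 to 0.160 CPM in a single library, for counting error only. Os12g0116800, whose older locus name is that of OsWRKY65, had 4.16, 0 and 0 CPM in WT against 69.5, 42.3 and 1040 CPM in the line (log2 fold change 8.04, adjusted p 0.763, edgeR). Line replicate 3 stood apart: it had a read for 20893 genes, against 24091 to 27129 in the other libraries, so results are given with and without it. Leaf identity was clear in all 6 libraries, with summed Rubisco small subunit genes at 5974 to 13408 CPM and the root gene RCc3 at no more than 0.999 CPM. The chlorophyll a/b binding genes summed to 9061 to 15003 CPM in WT against 18160 to 20383 CPM in the line. Of their 12 tested genes, 7 were above WT in all line libraries (58.3%). The same held for 2 of 6 Rubisco small subunit genes (33.3%), against 7.16% of all tested genes. None of these genes was called (edgeR), and the part of leaf age or leaf position in the results below was not tested.

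No member passed the main test. With edgeR's quasi-likelihood test on all 6 libraries and Benjamini-Hochberg adjustment over 23769 genes, 0 of 90 tested members were called higher and 0 lower at an adjusted p under 0.05, where 0% of all genes were called in either direction. At an unadjusted p under 0.05 there were 3 of 90 members (3.33%), against 6.51% of all genes. Without line replicate 3, 0 of 91 members were called in either direction, against 0.0527% of genes higher and 0.0243% lower, and 4 of 91 members had an unadjusted p under 0.05 (4.40%), against 10.6% of genes. DESeq2 called 1 of 89 members higher and 0 lower on all libraries (0.693% and 0.402% of genes), and 2 of 91 higher and 0 lower without line replicate 3 (1.06% and 1.69% of genes). limma-voom called 0 members with or without it.

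Counted by separation, all 3 line libraries lay above all 3 WT libraries for 4 of 90 members (4.44%), against 7.16% of genes, and below them for 6 (6.67%), against 10.5% of genes. Without line replicate 3, the numbers were 14 of 91 above (15.4%), against 14.5% of genes, and 8 of 91 below (8.79%), against 13.9% of genes. Both shares of members are near or under the background. The median log2 fold change of the line over WT was -0.19 over the members, with 39 positive and 51 negative, and -0.01 over all tested genes. Without line replicate 3 the members' median was 0.09, with 51 of 91 positive, and that of all genes 0.02.

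**Figure D1:**
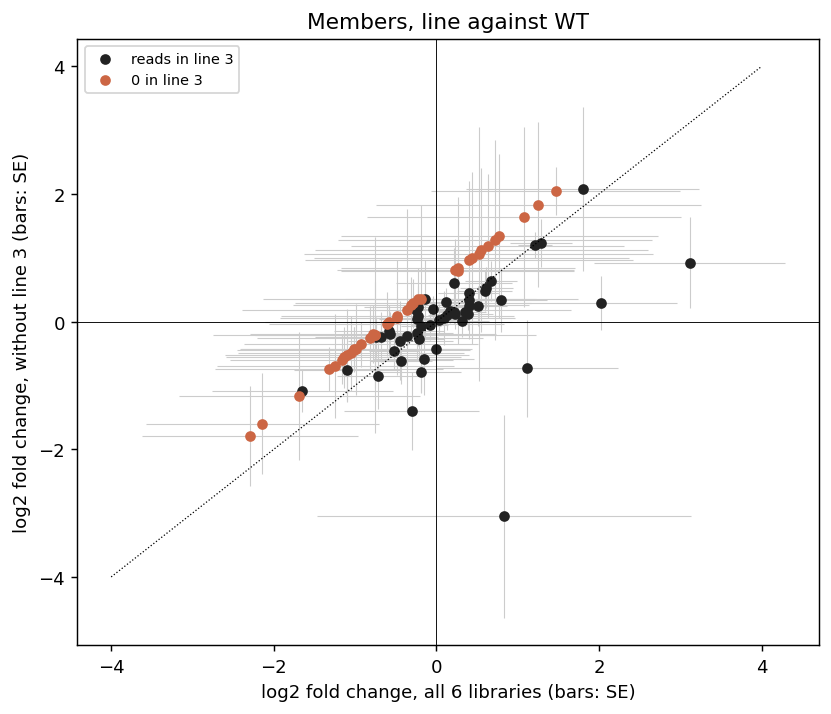
Log2 fold change of the line (OsWRKY65-2) over WT for each of the 90 members tested in both fits, fitted on all 6 libraries (x axis) and without line replicate 3 (y axis); grey bars are standard errors, the dotted line marks equal values, and orange points are members at a count of 0 in line replicate 3. Most orange points lie above the dotted line, so their fold change was lower with that library in the fit.

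Many bHLH members had no reads in line replicate 3. A count of 0 was recorded there for 40 of 91 members (44.0%), against 17.9% of all tested genes, while the other 5 libraries had between 0 and 9 members at 0. Tested members were also expressed at a lower level than all tested genes, with a median of 7.93 CPM against 13.03 CPM. Among genes with a median over 50 reads in the other 5 libraries, 26 of 74 members were at 0 in line replicate 3 (35.1%), against 12.5% of all such genes. That library was the lowest of the 6 for 44 members (48.4%), against 42.3% of tested genes, and the highest for 15 (16.5%), against 27.6%. The 40 members at 0 had a median log2 fold change of 0.08 without that library, close to the 0.09 of the other 51.

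**Figure D2:**
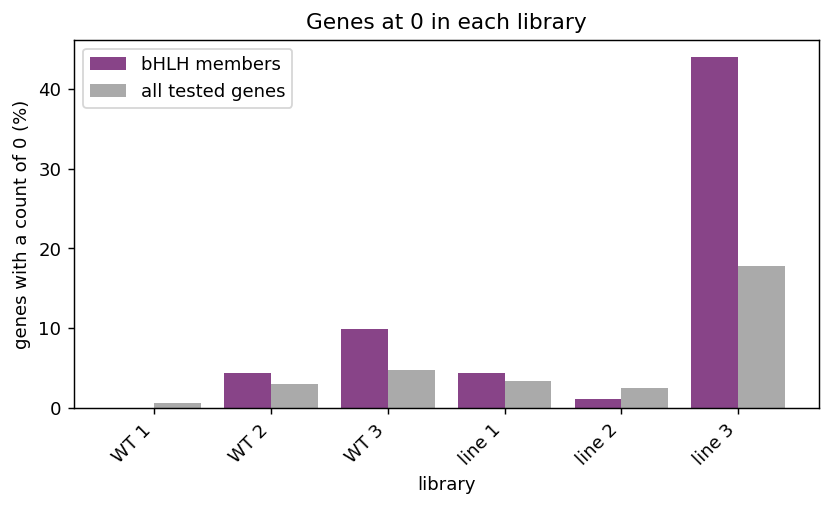
Percent of genes with a count of 0 in each library, for the 91 bHLH members (purple) and for all tested genes (grey). Line replicate 3 is the highest for both, at 44.0% of members and 17.9% of tested genes.

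By level per length, the members spanned 0.537 to 116 TPM (reads scaled for transcript length and library, mean of 6 libraries) with a median of 7.97 TPM. Only 3 were over 50 TPM and 4 under 1 TPM. Os08g0138500, a regulator of iron homeostasis, was the most abundant, at 112 ± 10.6 TPM in WT and 120.2 ± 27.7 TPM in the line. Os02g0116600, annotated by its domain only, followed at 101 ± 11.1 and 75.4 ± 19.7 TPM, and its level overlapped that of Os08g0138500 within the SD in WT. Os01g0924400, similar to an auxin-induced bHLH factor, stood at 53.4 ± 8.91 and 58.2 ± 18.2 TPM. Below these came Os03g0391700 (44.7 TPM over all libraries), Os01g0235700 (39.5 TPM), Os11g0158500 (39.0 TPM), Os11g0601700 (38.2 TPM) and Os03g0741100 (33.4 TPM), and neighbours in this order overlapped over the 6 libraries. All 8 had an adjusted p of 0.79 or more in the edgeR test. Os11g0158500 and Os12g0160400 lie on chromosome arms known for a recent duplication. Whether this pair are copies of each other and share reads was not tested.

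Between WT libraries the coefficient of variation had a median of 29.2%, was under 25% for 37 members and over 50% for 22. It was tight for the pair of iron regulators (median 11.2%) and the PIF-like members (16.6%), and wide for the jasmonate, wound and defence members (66.0%, with 5 of 6 over 50%). These classes also differed in level, with medians of 72.1, 15.5 and 8.57 TPM in that order. The part of level in this spread was not tested. In all, 36 members could be given a role from their annotation or identifier, and 55 could not.

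**Figure D3:**
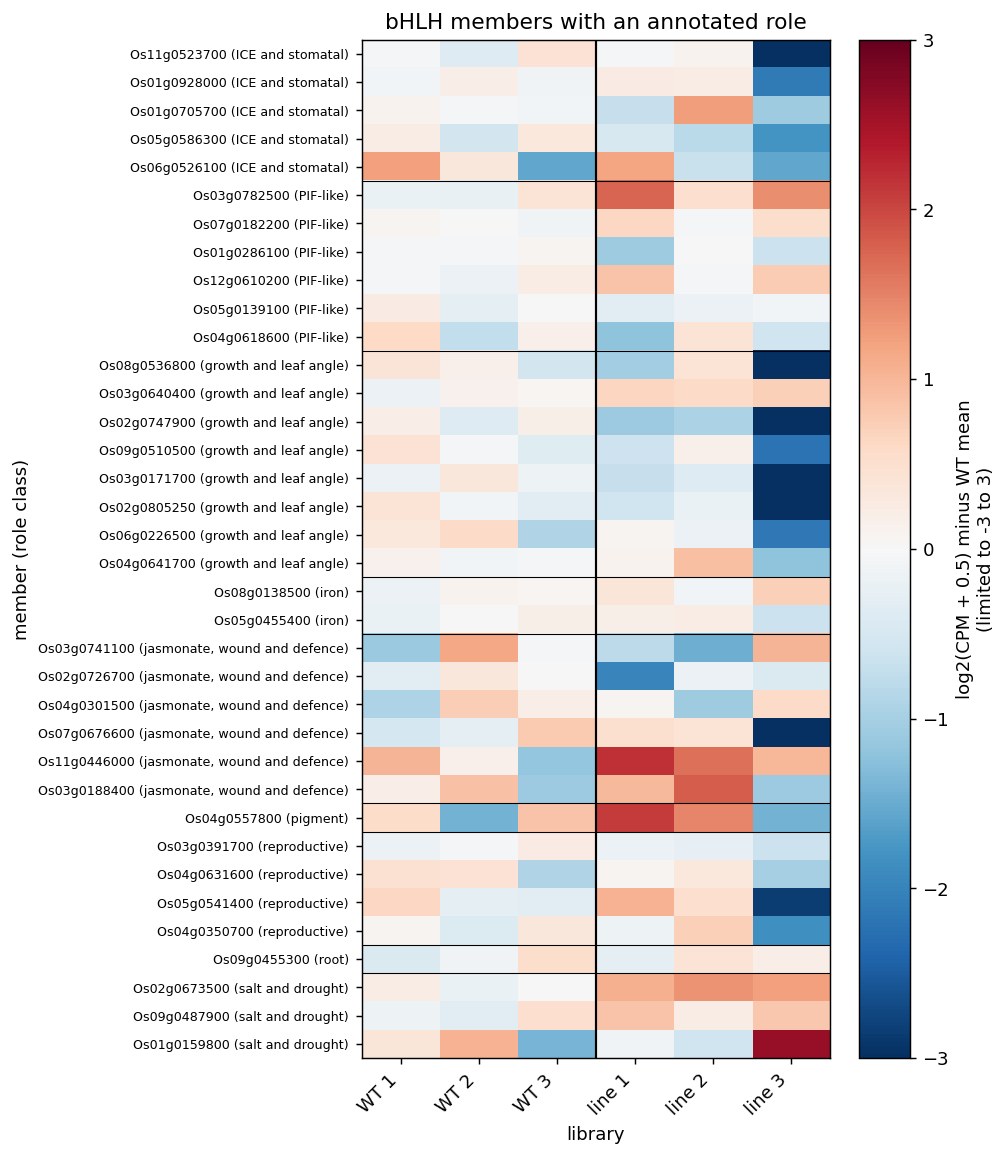
Log2(CPM + 0.5) of the 36 members with a role, minus the mean of the 3 WT libraries, in each library; rows are grouped by role class and ordered by mean TPM within it, and colours are limited to -3 to 3. Line replicate 3 is dark blue for many members of the stomatal and growth classes, while Os02g0673500 and Os03g0782500 are red in all 3 line libraries.

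Phytochrome-interacting factors (PIFs) are bHLH proteins that bind active phytochrome and are degraded in light, and they promote elongation growth in the dark and shade. Os03g0782500, annotated as a PIF-like regulator of internode elongation under drought, had 20.3, 19.7 and 31.2 CPM in WT against 78.9, 33.3 and 61.4 CPM in the line. The groups did not overlap, but line replicate 2 was only just above the highest WT library. Its log2 fold change was 1.28 ± 0.38 (SE). In edgeR the adjusted p was 0.763 on all libraries and 0.315 without line replicate 3. DESeq2 gave 0.182 and 0.103. An exact two-sided permutation test over the samples gave p = 0.1, the smallest that 3 against 3 allows.

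In 4 of the other PIF-like members, line replicates 1 and 3 also lay on the same side of line replicate 2. Such an order is common among any 3 values, and its share over all genes was not counted. Os12g0610200, annotated for grain size, had 11.7, 10.5 and 14.1 CPM in WT against 22.3, 11.8 and 20.9 CPM in the line. Os07g0182200, similar to PIF3, had 14.3, 13.7 and 12.6 against 21.03, 13.1 and 19.7 CPM. In both, line replicates 1 and 3 were above every WT library and line replicate 2 was within the WT range. Os01g0286100, a PIF-like repressor of seedling growth in the dark, went the other way, with 39.5, 38.95 and 43.1 CPM in WT against 19.1, 39.99 and 25.8 CPM in the line, where replicates 1 and 3 were low and replicate 2 was like WT. Os04g0618600, similar to HFR1, an atypical partner of PIFs, had 8.81, 3.15 and 6.296 against 2.15, 7.67 and 3.53 CPM, with line replicates 1 and 3 below line replicate 2 and the genotypes overlapping. Os05g0139100, a negative regulator of grain length, overlapped too, at 12.3, 8.49 and 10.4 against 8.02, 9.096 and 9.68 CPM. The log2 fold changes were 0.59 ± 0.34 (SE) for Os12g0610200, 0.41 ± 0.28 (SE) for Os07g0182200 and -0.52 ± 0.31 (SE) for Os01g0286100, with adjusted p of 0.773, 0.815 and 0.781 in edgeR.

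The gene annotated as similar to LHY, a dawn-phased clock factor that is not a bHLH protein, had 119, 117 and 249.6 CPM in WT against 405, 119 and 414 CPM in the line. Line replicates 1 and 3 were thus also apart from line replicate 2 in this clock gene, and the part of the time of harvest in the PIF-like values was not tested. Of the 4 phytochrome genes tested, the photoreceptors above PIFs, 0 were called in either direction. Os03g0719700, similar to phytochrome A, was the only phytochrome gene among these with all line libraries above WT, at 1.92, 1.83 and 1.71 CPM against 3.41, 3.35 and 4.55 CPM. Phytochrome A (Os03g0719800) had 131, 150.2 and 106 CPM in WT against 121, 133 and 41.9 CPM in the line.

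**Figure D4:**
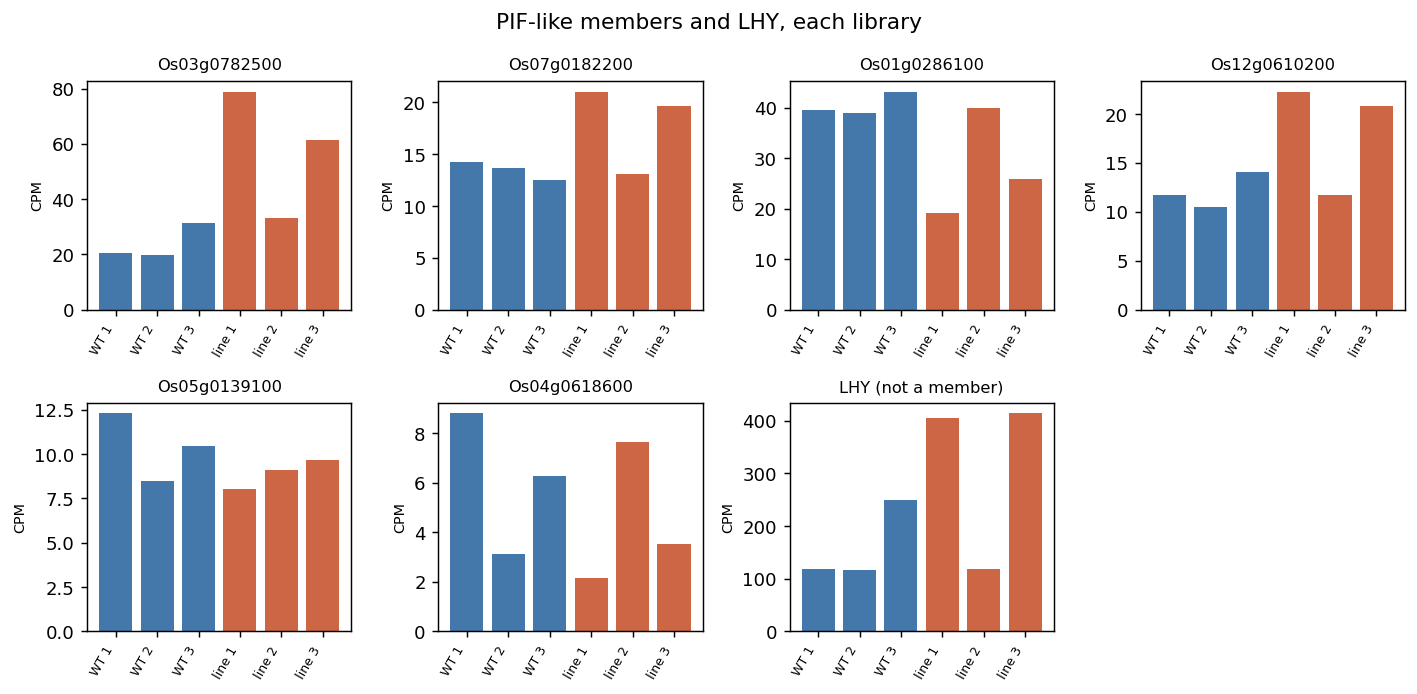
CPM of the 6 PIF-like members and of LHY in each library; blue bars are WT and orange bars the OsWRKY65-2 line, and each panel has its own axis from 0. Line replicates 1 and 3 stand above line replicate 2 for Os03g0782500, Os07g0182200, Os12g0610200 and LHY, and below it for Os01g0286100 and Os04g0618600.

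Several rice bHLH and HLH proteins act in brassinosteroid signalling and set leaf angle and grain size, by cell elongation in the lamina joint and the grain. Of the 8 members of this growth and leaf angle class, 6 had a negative log2 fold change both with and without line replicate 3. The class median was -0.77 with it and -0.22 without it. Over all tested members, 51 of 90 were negative with it and 40 of 91 without it. In that library 5 of the 8 were at a count of 0. Without it, Os06g0226500, Os08g0536800 and Os09g0510500 were at -0.21 ± 0.84 (SE), -0.20 ± 0.45 (SE) and -0.24 ± 0.39 (SE). None of the 8 passed the test. Summed over the class, the level was 116, 101 and 73.1 TPM in WT and 54.0, 86.9 and 18.7 TPM in the line. Line replicate 2 was thus inside the WT range and the other line libraries below it.

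Os02g0747900, an atypical bHLH protein that controls cell elongation, grain size and leaf angle, had 13.8, 8.95 and 13.5 CPM in WT against 5.296, 5.96 and 0.107 CPM in the line. All line libraries were lower than all WT libraries. The log2 fold change was -1.65 ± 1.12 (SE, adjusted p 0.81, edgeR), and -1.09 ± 0.33 (SE) without line replicate 3 (adjusted p 0.319). Os03g0171700, annotated as a regulator of leaf angle, was likewise lower in every line library, with 5.48, 7.97 and 5.52 CPM in WT against 3.67, 4.64 and 0 CPM in the line. Its log2 fold change was -1.17 ± 1.37 (SE) and, without line replicate 3, -0.60 ± 0.38 (SE), and that library held no reads of this gene.

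Os08g0536800, a positive regulator of cell elongation in lamina joints and grains, had 27.2, 22.9 and 13.97 CPM in WT against 9.75, 27.4 and 0 CPM in the line, from 0 to above the highest WT library. Os09g0510500, an activator that controls leaf angle and grain size, had 13.05, 9.04 and 7.27 against 5.98, 10.6 and 1.66 CPM, and Os02g0805250, annotated for grain size, 13.7, 9.59 and 8.205 against 6.66, 8.85 and 0 CPM. In each of these the groups overlapped. The remaining HLH genes of the class were low: Os06g0226500, of brassinosteroid signalling, was between 0 and 2.81 CPM and Os04g0641700, a positive regulator of lamina joint bending, between 0 and 1.64 CPM. Os03g0640400, the KxDL partner of the HLH and bHLH complex that controls leaf angle, was alone in the class in having all its line libraries above WT, at 4.76, 6.02 and 5.69 CPM in WT against 8.76, 8.38 and 9.25 CPM in the line. Its log2 fold change was 0.67 ± 0.32 (SE, adjusted p 0.764, edgeR).

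Among 62 tested genes annotated for brassinosteroids, 0 were called in either direction, and the line libraries were all above WT for 2 (3.23%, against 7.16% of all genes) and all below for 8 (12.9%, against 10.5%). The 2 above were Os03g0169600, a Dof factor of brassinosteroid signalling, with 34.5, 26.9 and 48.4 CPM in WT against 143, 51.9 and 147 CPM in the line, and Os03g0227700, the biosynthetic C-22 hydroxylase, with 4.52, 7.15 and 15.1 CPM in WT against 39.3, 15.9 and 51.6 CPM in the line. Line replicate 2 was again nearest to WT in both. Among the 8 below was Os01g0205700, orthologue of the kinase BIN2 that represses brassinosteroid signalling, with 46.2, 53.8 and 57.6 CPM in WT against 35.2, 45.8 and 20.643 CPM in the line.

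**Figure D5:**
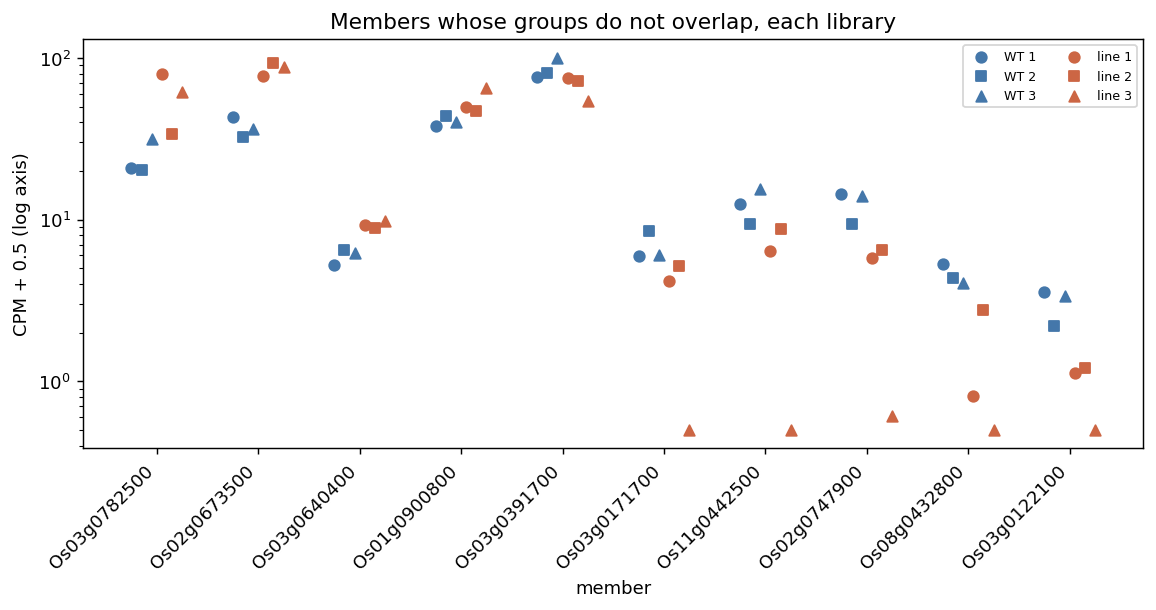
CPM + 0.5, on a log axis, of the 10 members whose 3 line libraries (orange) lie all above or all below the 3 WT libraries (blue), ordered by log2 fold change. Os02g0673500 has a clear gap between the genotypes, while 4 of the 6 members below WT are at the bottom of the axis, at 0 counts, in line replicate 3.

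Stomata arise by steps driven by SPCH-type, MUTE-type and FAMA-type bHLH factors, each working with an ICE-type (SCREAM) partner. The 5 members of this class had a median log2 fold change of -0.37 on all libraries and 0.18 without line replicate 3, and none passed the test. Os11g0523700, an ICE-type factor of stomatal initiation and chilling tolerance, had 34.6, 26.9 and 47.8 CPM in WT against 34.3, 38.3 and 0 CPM in the line. Os01g0928000, of the same class, had 10.2, 12.4 and 10.03 against 12.9, 12.8 and 2.09 CPM. In both, line replicates 1 and 2 were within or just above the WT range and replicate 3 was far below it.

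Os05g0586300, annotated for subsidiary mother cell division and mature stoma differentiation (the FAMA-type step), had 5.24, 2.84 and 5.65 CPM in WT against 3.04, 2.32 and 0.909 CPM in the line, with overlap at the lowest WT library. The SPCH-type gene Os06g0526100, which starts the lineage, was at 2.96, 1.37 and 0 CPM in WT against 2.88, 0.428 and 0 CPM in the line, and Os01g0705700, similar to ICE1, at 6.28, 5.71 and 5.52 against 3.41, 14.5 and 2.51 CPM. Summed over the class, the level was 45.3 to 55.2 TPM in WT, 40.8 and 53.1 TPM in line replicates 1 and 2, and 4.26 TPM in line replicate 3. The 3 genes tested that are annotated as epidermal patterning factor-like peptides were low, at no more than 6.08 CPM. None of their annotations names stomata. All 3 were at 0 in line replicate 3, 1 of them also in WT replicate 3, and 0 were called. Genes of dividing cells were also lowest in line replicate 3, at a summed 1296 CPM against 2181 to 2713 CPM in WT, but line replicates 1 and 2 were above WT, at 3009 and 4274 CPM. Of 61 tested genes of that list 0 were called, and their part in the stomatal values was not tested. Counts of 0 in line replicate 3 were not particular to this class. They were recorded for 2 of its 5 members, 5 of 8 in the growth class and 29 of 55 without a role. Over all tested genes the share at 0 in that library was 17.9%, and its part in the stomatal values was not tested. In whole leaves, fewer cells of a type and less RNA per cell cannot be told apart.

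The member with the smallest p was Os02g0673500, annotated as a bHLH protein that sets metaxylem vessel number and represses the response of metaxylem to drought. It had 42.4, 31.8 and 36.1 CPM in WT against 76.6, 93.1 and 86.96 CPM in the line, a mean of 36.8 ± 5.35 against 85.5 ± 8.36 CPM (SD, n = 3 each). The lowest line library was well above the highest WT library, and line replicate 3 sat between the other line libraries. The log2 fold change was 1.22 ± 0.21 (SE), and the adjusted p over all genes was 0.763 in edgeR on all libraries and 0.132 without line replicate 3. DESeq2 called it, with adjusted p 0.000596 and, without line replicate 3, 0.000105. An exact two-sided permutation test gave p = 0.1, the smallest possible.

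The other drought and salt members were less clear. Os09g0487900, bHLH 130 of drought tolerance, had 18.6, 16.4 and 29.8 CPM in WT against 38.3, 24.3 and 36.6 CPM in the line, where line replicate 2 was within the WT range. Its log2 fold change was 0.61 ± 0.33 (SE, adjusted p 0.77, edgeR). Os01g0159800, annotated for germination and recovery from salt, had 4.76, 7.97 and 1.06 CPM in WT against 3.304, 2.21 and 24.7 CPM in the line. Without line replicate 3, which alone was high, its log2 fold change turned from 1.11 ± 1.12 (SE) to -0.73 ± 0.76 (SE).

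In the jasmonate, wound and defence class the libraries of a genotype differed widely and none of the members passed the test. Os03g0741100, annotated for drought tolerance and known in rice as a jasmonate-responsive bHLH factor, had 11.01, 54.4 and 23.4 CPM in WT against 13.9, 8.53 and 49.6 CPM in the line. Os04g0301500, an activator of disease resistance in salicylate and jasmonate signalling, had 4.28, 14.7 and 9.87 against 9.07, 3.82 and 12.996 CPM. Both ranked the 6 libraries in an identical order, with WT replicate 2 highest, then line replicate 3, and line replicate 2 lowest. No other member had this order, but it was noticed in these values. How many other pairs of members share an order was not counted. Os02g0726700, annotated for jasmonate-mediated resistance to bacterial blight, had 17.01, 27.6 and 21.4 CPM in WT against 5.09, 19.1 and 15.9 CPM in the line, where line replicate 1 was the low one.

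The log2 fold change of Os03g0741100 was -0.30 ± 0.83 (SE) with all libraries, -1.40 ± 0.61 (SE) without line replicate 3 and 0.47 without WT replicate 2, so its direction depends on single libraries. Os07g0676600 and Os03g0188400, both annotated for defence against the brown planthopper, were at 2.88, 3.54 and 7.84 against 6.24, 5.92 and 0 CPM and at 0.7205, 1.44 and 0 against 1.57, 3.25 and 0 CPM in WT and line. Os11g0446000, the R/B-like nuclear protein of jasmonate-induced expression and root cell elongation, had 1.76, 0.733 and 0 CPM in WT against 4.56, 2.996 and 1.71 CPM in the line, overlapping by line replicate 3, with a log2 fold change of 1.80 ± 1.44 (SE).

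Another 3 genes of the family, which did not pass the read rule, showed reads in WT replicate 2 and line replicate 3 and in no other library, the 2 libraries that were highest for Os03g0741100. Os01g0196300, annotated as the diterpenoid phytoalexin factor that controls the biosynthesis of these antimicrobial compounds, had 1.62 CPM in WT replicate 2 and 20.64 CPM in line replicate 3. Os02g0221100 had 0.917 and 11.7 CPM and Os06g0570900 had 1.65 and 23.7 CPM in these libraries. These 3 genes are named because their values were seen. Of the 44 genes below the read rule, 23 had a count of 0 in all 6 libraries.

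The iron regulators were steady in WT and more variable in the line, for Os05g0455400 through line replicate 3 alone. Os08g0138500 had 67.3, 81.3 and 79.5 CPM in WT against 97.2, 71.1 and 124 CPM in the line, with a log2 fold change of 0.36 ± 0.25 (SE). Os05g0455400, annotated for the maintenance of iron homeostasis, had 21.2, 24.5 and 27.2 against 27.4, 28.3 and 15.4 CPM, with a log2 fold change of -0.04 ± 0.30 (SE). The groups overlapped for both.

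Among the reproductive regulators, Os03g0391700, annotated for thermosensitive male sterility and also abundant in these leaves, had 75.3, 80.7 and 100.002 CPM in WT against 74.5, 71.1 and 53.6 CPM in the line. The groups did not overlap, but the highest line library was only just below the lowest WT library. Its log2 fold change was -0.36 ± 0.22 (SE, adjusted p 0.79, edgeR). Os04g0631600, of flowering and the salt response, Os05g0541400, of flowering time, and Os04g0350700, of awn and grain development, had mean levels of 4.64, 3.10 and 2.01 TPM, overlapped between genotypes and had line replicate 3 as their lowest library.

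Single members stood for the other roles. Os09g0455300, of root thickness and length, had 4.56, 5.805 and 9.34 CPM in WT against 5.14, 8.56 and 7.27 CPM in the line and did not differ beyond the spread, with a log2 fold change of 0.09 ± 0.43 (SE). Os04g0557800, similar to the R-type factors that switch on anthocyanin genes, had 1.48, 0 and 1.95 CPM in WT against 5.296, 3.21 and 0 CPM in the line, with 0 in a library of each genotype. Of 33 tested genes annotated as flavonoid enzymes, the pathway that R-type factors serve, 0 were called in either direction. Flavonoid 3'-hydroxylase (Os10g0320100) had 8.69, 14.1 and 15.6 CPM in WT against 19.9, 30.1 and 58.1 CPM in the line, and a chalcone isomerase gene (Os03g0819600) 62.8, 36.6 and 48.9 CPM in WT against 25.7, 33.2 and 15.3 CPM in the line. The groups did not overlap in either gene. Over the 33 genes, the line libraries were all above WT for 2 (6.06%, against 7.16% of all genes) and all below for 6 (18.2%, against 10.5%).

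The 55 members without a role had a median log2 fold change of -0.19 over the 54 tested, with 24 positive, and 0.06 without line replicate 3, with 31 of 55 positive. Os01g0108400, known by its domain only, had 4.08, 2.93 and 2.15 CPM in WT against 14.9, 10.9 and 0 CPM in the line. Line replicates 1 and 2 were above every WT library and replicate 3 had no read. Its log2 fold change was 1.47 ± 1.53 (SE, adjusted p 0.875, edgeR) with all libraries and 2.05 ± 0.38 (SE) without line replicate 3 (adjusted p 0.148). DESeq2 called it without that library, with adjusted p 0.00155.

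For a pair of domain-only members, 1 library set the fold change. Os01g0218100 had 1.96, 1.83 and 1.22 CPM in WT against 4.98, 1.53 and 38.8 CPM in the line, and its log2 fold change of 3.11 ± 1.18 (SE) became 0.93 ± 0.71 (SE) without line replicate 3. Os01g0575200 had 3.64, 5.35 and 8.65 CPM in WT against 7.499, 6.88 and 58.03 CPM in the line, and its log2 fold change of 2.02 ± 0.94 (SE) became 0.29 ± 0.42 (SE). In both, line replicate 3 was by far the highest library.

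Among the 54 tested members without a role, all line libraries lay below WT for 3 and above WT for 1. Over all tested genes the shares were 10.5% below and 7.16% above. Os03g0122100 had 3.04, 1.68 and 2.84 CPM in WT against 0.629, 0.713 and 0 CPM in the line, and Os08g0432800, similar to the morning glory activator Ivory seed, 4.803, 3.88 and 3.57 against 0.315, 2.25 and 0 CPM. Os11g0442500 had 12.01, 8.86 and 14.9 against 5.93, 8.24 and 0 CPM. Line replicate 3 was at 0 in all 3 genes, and line replicates 1 and 2 were below WT too, with log2 fold changes without replicate 3 of -1.79 ± 0.79 (SE), -1.60 ± 0.79 (SE) and -0.74 ± 0.35 (SE) in that order. Os01g0900800 was higher in each line library, with 37.7, 43.1 and 39.8 CPM in WT against 49.1, 46.3 and 64.2 CPM in the line, and the log2 fold change was 0.40 ± 0.21 (SE), at an edgeR adjusted p of 0.77.

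Some members were lower in line replicates 1 and 2 only. Os06g0193400 had 42.1, 44.9 and 47.8 CPM in WT against 33.5, 33.5 and 67.3 CPM in the line, and Os07g0628500 7.85, 10.1 and 9.02 against 4.195, 6.17 and 13.3 CPM. In each, line replicates 1 and 2 were below every WT library and replicate 3 above them. Their log2 fold changes without line replicate 3 were -0.42 ± 0.18 (SE) and -0.78 ± 0.34 (SE, adjusted p 0.474 and 0.477, edgeR), against -0.01 ± 0.33 (SE) and -0.19 ± 0.49 (SE) with it.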

How the data were processed

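Per the labels, polyA RNA from leaves of 14-day-old rice seedlings was sequenced, with 3 libraries of WT and 3 of OsWRKY65-2. The tools named in the submitters' processing notes are StringTie 2.1.3b, HISAT2 2.1.0, Trimmomatic and bcl2fastq 2.20.0, and the genome build is IRGSP-1.0. Counting options, strandedness and the release of the annotation are not stated there. The deposited table holds estimated counts per gene, already whole numbers, and the authors' FPKM and TPM values, which are scaled to transcript length and library size. Reads of overlapping genes or near-identical copies can be shared. OsWRKY65 is annotated under no gene name there, and Os12g0116800 was taken for it because, from general knowledge, its older locus name is that of OsWRKY65. The table gives no coordinates, so chromosomes are those encoded in the gene identifiers.

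The counts were tested with edgeR 4.0.16 (R 4.3.3): TMM factors, a filterByExpr minimum count of 10, the robust quasi-likelihood test with genotype as the sole term, Benjamini-Hochberg adjustment over all genes tested, a threshold of 0.05 and a prior count of 2 for fold changes. The SE is the absolute log2 fold change divided by the square root of F. The deposited TPM served for levels per length, and FPKM for a check of their order. DESeq2 1.42.0, limma 3.58.1 (voom, and trend on log2 TPM with pseudocounts of 1 and 0.1), other filters and scalings, a replicate block and the omission of each library were alternatives.

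The members, role classes and related gene lists were chosen with earlier results of these data known. Members named in the text are those past the threshold or with the 8 smallest p with or without line replicate 3, the 8 most abundant, up to 5 per direction among separated members with at least 1 CPM, and up to 4 per role class; the other members of small classes, Os12g0160400 and the genes below the read rule are named in addition. Of 36 role placements, 18 were by identifier, 14 by annotation text and 4 after the annotations had been read, while 4 identifiers listed for a role were left without one because their annotation gives only the domain. One member, Os08g0487700, was too low to be tested in the main test.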

Additional observations from a re-analysis of the deposited data

How the results depend on the processing

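Calls of members were 0 in each direction in every edgeR and limma setting run, and 1 (higher) with DESeq2 and 2 (higher) with DESeq2 without line replicate 3. Over all genes, higher calls numbered 0 in the main test, 2 with no filter on low counts, 2 with limma-trend at either TPM pseudocount, 181 with DESeq2, 0 to 13 when 1 library was left out, 5 with limma-voom without line replicate 3 and 274 with DESeq2 without it. Lower calls numbered 0 in the main test, 105 with DESeq2, 0 to 6 when 1 library was left out, 2 with limma-voom without line replicate 3 and 435 with DESeq2 without it. Members with all line libraries above WT numbered 4, and 4 to 15 when 1 library was left out, with 10 without WT replicate 3 (11.1%, against 11.5% of all genes), 14 without line replicate 3 (15.6% against 14.6%) and 15 without line replicate 2 (16.7% against 18.8%). Those below numbered 6, 13 on the TPM scale (14.4% against 18.4%), and 8 to 21 when 1 library was left out, with 12 without WT replicate 2 (13.3% against 15.2%), 14 without WT replicate 3 (15.6% against 15.7%) and 21 without line replicate 2 (23.3% against 22.4%). These shares are over the genes of the main test. Fewer libraries are easier to separate, and the TPM scale moved the median of all genes to -0.28 (pseudocount 1) and -0.34 (pseudocount 0.1); other causes were not tested. The members' median ran from -0.62 to 0.09 over all settings and was above 0 in each setting without line replicate 3.

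Of 289 values of 17 named members under 17 other settings, 275 kept their direction and side of the threshold, 3 came to pass it and 11 in 4 genes changed sign. Os01g0108400 turned to -0.49 with limma-voom and -0.73 with log2(TPM + 0.1). With 1 library left out, Os03g0741100 ranged from -1.40 (without line replicate 3) to 0.47 (without WT replicate 2), and Os07g0628500 from -0.78 to 0.11. Os06g0193400, near 0 in the main test, was 0.0194 with DESeq2 size factors, 0.0232 with a stricter filter and 0.0183 with DESeq2, and ran from -0.42 to 0.16 when 1 library was left out. The order of the 8 most abundant members was unchanged on the FPKM scale.

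The labels number replicates 1 to 3 in both genotypes. Deviations of same-numbered libraries correlated at 0.0704, -0.0718 and -0.0117, so the numbers were not taken as pairs. With a replicate block, 0 members and 0 genes were called in either direction, and without line replicate 3 the block gave 7 genes higher and 1 lower.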
